A study of Mus musculus with 12 samples.

Results

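The comparison described here is the response of β-catenin cells to 24 h of 4-hydroxytamoxifen (4-OHT), measured as 3 arrays at 24 h against 3 arrays at 0 h, chosen from the 12 arrays of the study by their labels. All samples were PUER cells, a mouse myeloid progenitor line that carries the transcription factor PU.1 fused to the ligand-binding part of the oestrogen receptor, so that 4-OHT switches PU.1 on. The cells had been infected with the retroviral vector MIGR1 carrying β-catenin-S33Y, a mutant that escapes phosphorylation and degradation (β-catenin cells), or with MIGR1 alone (control cells), and both vectors mark cells with GFP. Cells with GFP were collected by sorting on day 5 of the infection. RNA was taken before 4-OHT (0 h) or 24 h after addition of 10 nM 4-OHT, which gave 3 arrays, lettered A, B and C, in each of 4 groups. Every group therefore shared the PU.1 fusion and a retroviral integration of GFP, and β-catenin-S33Y was driven by the viral promoter. A 24 h culture lacking 4-OHT and a line lacking the fusion were not analysed here, so PU.1 activation, 4-OHT itself and time in culture cannot be told apart. Whether the 3 samples of a group were separate cultures is not stated in the labels, so p-values reflect only the spread among the samples, which may be technical.

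PU.1 is an Ets family factor that binds purine-rich sites with a GGAA core and opens the genes of monocytes, macrophages and granulocytes, among them receptors for growth factors, antibodies and microbial products. β-Catenin is the transcriptional arm of the canonical Wnt pathway: when it is not degraded it enters the nucleus and acts through TCF and LEF factors. In blood progenitors Wnt signalling is known mainly for its part in self-renewal, and the study placed a constantly active form of it against the PU.1 programme.

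Total RNA was measured on single-colour Agilent arrays, and values below are the authors' normalized log2 intensities. Between 47.4% and 49.9% of the genes of each of the 6 arrays lay above its background bound (7.27 to 7.50 on the log2 scale), and 1.51% to 2.30% of its spots had reached the scan ceiling. Folds from or to a group with an array below its bound are written as at least a value, as are folds towards an array at the ceiling. Arrays of 1 group correlated at 0.994 to 0.995 (Pearson) and arrays of different times at 0.988 to 0.990, across genes, which are not independent replicates. Of 8 myeloid progenitor markers, Spi1, Mpo, Kit, Fcgr3, Cebpa and Csf2rb lay above background on all 3 arrays at 0 h and Ptprc joined them at 24 h, while Cd34 stayed below. Their mean value was 12.21 to 12.29 at 0 h and 12.50 to 12.59 at 24 h. Of the markers of other cell types, 2 of 5 T cell genes (Cd3e and Lck), 0 of 3 NK cell genes, 1 of 4 endothelial genes (Pecam1), 1 of 5 fibroblast genes (Col1a2) and 0 of 4 epithelial genes lay above background at both times. In RNA from a whole population, fewer cells of a type and less RNA per cell cannot be told apart.

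Of 22461 genes tested, 3220 (14.3%) were called in β-catenin cells at an adjusted p below 0.05 (limma, Benjamini-Hochberg), 1801 higher (8.02%) and 1419 lower (6.32%) after 24 h. Normexp with quantile normalization called 1859 higher and 1930 lower, scaling to the 75th percentile 1484 higher and 1717 lower, and array weights 5060 in all. By fitted change the rises reached much further than the falls. At least 2-fold rises were called for 305 genes (1.36%) and at least 2-fold falls for 167 (0.744%). The change reached 4-fold in 75 genes that rose and 11 that fell. It reached 8-fold in 33 that rose, whereas the largest fall, of Tgm2, was 7.39-fold. All counts by fold in this paragraph rest on fitted changes, also where a gene began or ended below background. For some genes counted at 8-fold, such as Gpr65, the bounded fold was smaller. In 32.7% of all genes tested the 2 groups did not overlap, so separation alone is not a result. Of the 3220 genes called, 136 lay under the background bound at both times. Without β-catenin 0 h array B the count of lower genes was 900, and without 0 h array C it was 934. The same fit called 5096 genes (22.7%) in control cells, 2674 higher (11.9%, at least 2-fold in 2.58%) and 2422 lower (10.8%, at least 2-fold in 2.28%), and a difference between the changes of both kinds of cells for 1610 genes (7.17%), higher in β-catenin cells for 839 (3.74%) and lower for 771 (3.43%). Without β-catenin 0 h array B or C the count of lower differences was 502. In the lists below, counts of 1 to 3 members often moved by 1 or 2 when 1 array was left out, and for higher counts the arrays that moved them by more than 1.5 times are named. Where another normalization, filter or weighting moved a higher count of members called in β-catenin cells by more than 1.5 times, its count is given too. Counts of members called stand beside 8.02% higher and 6.32% lower over all genes tested. Counts of called differences stand beside 3.74% higher and 3.43% lower. A count near these shares is no result about its list.

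Receptors of the paired immunoglobulin-like family, surface proteins that come as activating and inhibitory partners, took the greatest share of calls of the 46 gene lists compared: 18 of 31 members tested rose and 1 fell, with a median log2 change of 0.57 (0.48 with values below background at their bound), against 0.02 over all genes tested. Lilra6 (listed as Pira3), an activating member, read 8.03, 7.91 and 8.03 at 0 h and 15.14, 15.56 and 15.49 at 24 h. Its groups lay far apart, a rise of 170-fold (log2 change 7.41 ± 0.14, standard error of the fit with 3 arrays a group, adjusted p = 3.22e-11). The inhibitory receptor gene Pirb (listed as Lilrb3) read 8.81, 9.14 and 9.15 at 0 h and 13.68, 13.45 and 13.73 at 24 h, again with no overlap, and rose 24.1-fold. Pilrb1 (listed as Pilrb), which signals through an activating adaptor, rose 20.9-fold, and Trem2, a lipid-sensing receptor of macrophages, rose 13.8-fold (log2 change 3.79 ± 0.14). Pira6, below background at 0 h, rose at least 8.45-fold. The inhibitory receptor genes Cd33 and Sirpa were not called, with log2 changes of 0.41 ± 0.14 and 0.20 ± 0.11. Members of this family are closely similar in sequence and the positions of the probes are unknown here, so 1 probe may read several of them. Of the 31 members, 18 had a called lower change than in control cells, where 26 rose, and 0 a higher one (limma; 0 at an unadjusted p under 0.05). Lilra6 was not among those 18: its change in control cells was 7.76 ± 0.14 and the difference -0.35 ± 0.20 (adjusted p = 0.364), although its signal there had reached the scan ceiling.

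**Figure D1:**
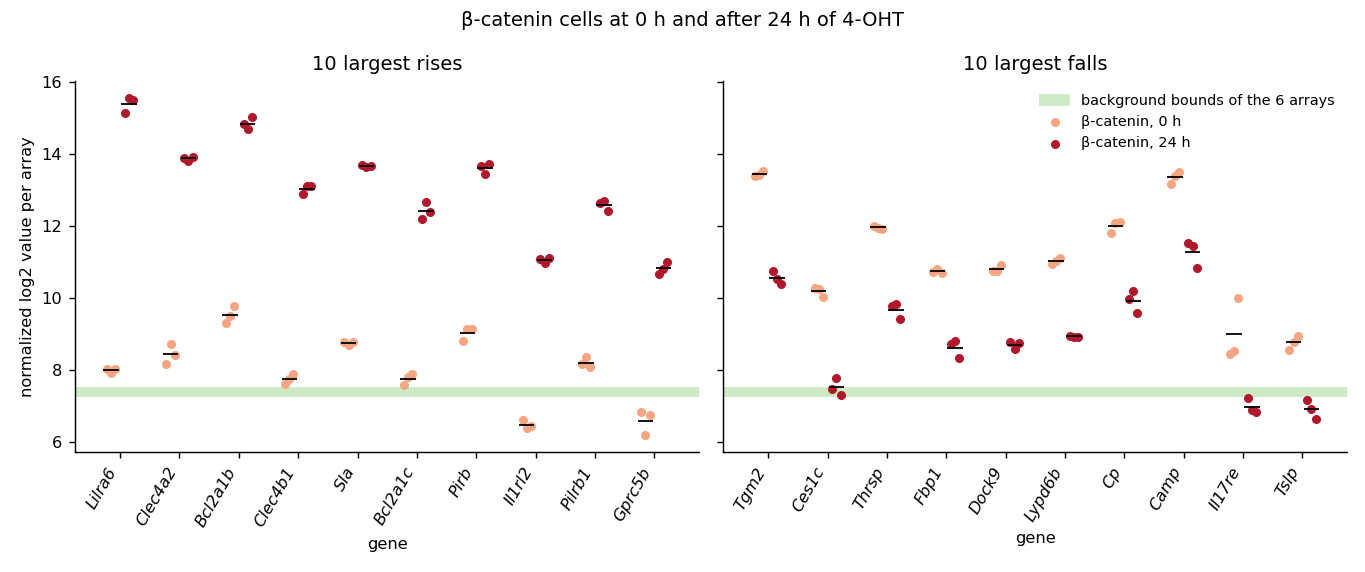
Normalized log2 value (vertical axis) on each array of β-catenin cells for the 10 largest rises and 10 largest falls by fitted log2 change (horizontal axis), at 0 h (light) and after 24 h of 4-OHT (dark). Points are arrays, bars are means of 3 arrays and the band spans the background bounds of the 6 arrays. Groups that did not overlap were part of the choice of genes. Il1rl2 and Gprc5b start below the band and Il17re and Tslp end below it, so the place of these 4 rests on fitted values.

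By fitted log2 change the 10 largest rises with groups apart were Lilra6, Clec4a2, Bcl2a1b, Clec4b1, Sla, Bcl2a1c, Pirb, Il1rl2, Pilrb1 and Gprc5b. Il1rl2 and Gprc5b began below background, so their place, and with it the motif count below, rests on fitted and not on bounded changes. RefSeq promoters of build GRCm38.p6 were at hand for 9 of them, all but Sla. The PU.1 core GAGGAAGT, searched on both strands (reverse complement ACTTCCTC) in the 250 bases before the start, was found in 4 of the 9, against 2.79% of the genes among all 27025 with a promoter. The promoters of Lilra6 (chr7:3915502-3915751, minus strand), Pirb (chr7:3720383-3720632, minus strand), Bcl2a1b (chr9:89199023-89199272, plus strand) and Bcl2a1c (chr9:114329885-114330134, plus strand) are shown here since they hold that motif, which is in capitals. A match to these letters is a description and not a measured binding site.
Lilra6: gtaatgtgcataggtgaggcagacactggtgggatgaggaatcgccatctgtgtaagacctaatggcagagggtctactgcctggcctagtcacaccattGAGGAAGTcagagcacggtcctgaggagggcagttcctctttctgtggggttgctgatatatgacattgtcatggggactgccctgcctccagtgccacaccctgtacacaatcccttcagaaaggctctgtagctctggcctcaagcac
Pirb: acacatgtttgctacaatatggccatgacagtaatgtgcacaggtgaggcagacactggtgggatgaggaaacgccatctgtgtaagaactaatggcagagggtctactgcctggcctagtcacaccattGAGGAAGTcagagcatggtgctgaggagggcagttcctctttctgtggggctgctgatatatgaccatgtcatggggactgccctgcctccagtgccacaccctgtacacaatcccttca
Bcl2a1b: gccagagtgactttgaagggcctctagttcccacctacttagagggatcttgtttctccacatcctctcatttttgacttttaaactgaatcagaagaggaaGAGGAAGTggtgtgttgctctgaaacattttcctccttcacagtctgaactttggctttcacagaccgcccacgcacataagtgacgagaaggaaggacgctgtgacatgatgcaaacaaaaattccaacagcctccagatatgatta
Bcl2a1c: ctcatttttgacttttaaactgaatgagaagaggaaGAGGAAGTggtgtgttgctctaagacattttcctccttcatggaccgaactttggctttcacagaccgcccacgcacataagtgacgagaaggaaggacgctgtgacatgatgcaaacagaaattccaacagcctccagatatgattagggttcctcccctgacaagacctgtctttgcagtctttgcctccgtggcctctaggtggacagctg
Each window held 1 match, on the strand of the gene, which began 150 bases before the start in Lilra6, 120 in Pirb, 148 in Bcl2a1b and 214 in Bcl2a1c. The windows of Lilra6 and Pirb shared an identical run of 56 bases, and those of Bcl2a1b and Bcl2a1c a run of 73 bases, so the 4 matches come from 2 families and are not independent.

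C-type lectin receptors, which bind sugars on microbes and dying cells, split. Of 23 members tested 7 rose and 4 fell, with a median log2 change of 0.12 (0.02 with values at their bound). Clec4a2, an inhibitory receptor gene, read 8.17, 8.72 and 8.41 at 0 h and 13.90, 13.82 and 13.92 at 24 h, and its groups were wide apart. It rose 43.7-fold (adjusted p = 4.48e-10). Its neighbours in the same family, Clec4b1 and Clec4n (dectin-2), rose 39.5-fold and 8.84-fold. The oxidized-lipid receptor gene Olr1 fell by 0.64 ± 0.12 on the log2 scale. Clec7a, which encodes dectin-1 for β-glucans, read 11.69, 11.61 and 11.92 at 0 h and 10.91, 10.58 and 10.89 at 24 h, all 3 arrays at 24 h below those at 0 h, and fell by 0.95 ± 0.13. Clec5a was at the scan ceiling at both times, so no change could be read. The Clec4 genes are similar in sequence, with the same doubt about what their probes read. In 8 of the 23 the change was called lower than in control cells and in 1 higher.

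Fc receptors, which bind antibody, and their adaptors rose in 6 of 15 members tested and fell in 0 (limma; 1 at an unadjusted p under 0.05; median log2 change 0.38, or 0.07 at the bounds). Fcgr1, the high-affinity IgG receptor gene, read 6.75, 6.54 and 6.60 at 0 h and 10.55, 10.38 and 10.37 at 24 h, and so went from below background to well above it, at least 8.44-fold. Tyrobp (DAP12), the adaptor through which many activating receptors signal, rose 13.5-fold, with a called lower change than in control cells (-1.22 ± 0.20, adjusted p = 0.00344). Fcer1g, the other common adaptor gene, rose 1.99-fold, and Fcgrt, the neonatal Fc receptor gene, rose 3.77-fold. Fcgr3, already high, was not called (0.22 ± 0.13).

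Among chemoattractant receptors 6 of 30 members tested rose and 4 fell (2 fell without 0 h array B or C or 24 h array C). Ccr2, the receptor that draws monocytes to tissues, read 7.65, 7.55 and 7.38 at 0 h and 10.05, 10.70 and 10.49 at 24 h, with no overlap, and rose 7.40-fold. The formyl peptide receptor gene Fpr2 (listed as Fpr-rs2) rose at least 2.02-fold, and Cx3cr1, the fractalkine receptor gene, at least 1.49-fold, each from below background. The leukotriene B4 receptor gene Ltb4r1 fell by 0.84 ± 0.12. In 4 of the 30 the change was called lower than in control cells and in 0 higher (limma; 3 at an unadjusted p under 0.05). Cx3cr1 and Ccr2 were among the 4, and both began below background in control cells, where Cx3cr1 rose at least 10.7-fold.

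Receptors for nucleotides, lipids and metabolites rose in 11 of 38 members tested and fell in 2. The proton-sensing receptor gene Gpr65 read 6.44, 6.59 and 6.40 at 0 h and 10.20, 10.23 and 10.19 at 24 h. All its 0 h arrays were below background and all its 24 h arrays well above, a rise of at least 7.20-fold. Lpar6 (listed as P2ry5), a lysophosphatidic acid receptor gene, rose 5.29-fold (log2 change 2.40 ± 0.15, against 2.27 ± 0.15 in control cells). The difference between kinds of cells was not called for Lpar6 (0.13 ± 0.21). The succinate receptor gene Sucnr1 rose at least 1.41-fold here and at least 21.5-fold in control cells, both from below background, and the fitted changes were called different (adjusted p = 1.55e-06). The prostacyclin receptor gene Ptgir fell by 0.66 ± 0.11.

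Toll-like receptors and their adaptors rose in 8 of 22 members tested and fell in 1. Cd14, the lipopolysaccharide co-receptor gene, read 13.31, 13.51 and 13.68 at 0 h and 15.77, 15.55 and 15.53 at 24 h, without overlap, and rose 4.34-fold. Its partner Ly96 (MD-2) rose 1.83-fold and Tlr2, a receptor for bacterial lipoproteins, 1.78-fold. The signalling genes Myd88 and Irak1 were not called (0.21 ± 0.11 and -0.07 ± 0.10). Of the 22, 3 had a called lower change than in control cells, Ly96 among them (-1.20 ± 0.13). The differences of Cd14 (0.42 ± 0.20) and Tlr2 (0.03 ± 0.16) were not called. Cd14 had reached the scan ceiling on at least 1 array, so its difference is not exact.

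Cytokine receptors of blood cells rose in 15 of 42 members tested and fell in 4, with a median log2 change of 0.24. In 9 of the 42 the change was called lower than in control cells and in 2 higher. Il1rl2, the interleukin 36 receptor gene, read 6.60, 6.40 and 6.45 at 0 h and 11.08, 10.98 and 11.11 at 24 h and rose (fitted log2 change 4.58 ± 0.10, from below background). The interleukin 1 decoy receptor gene Il1r2 rose at least 6.87-fold. Both came up from below background on every 0 h array. Of the interferon receptor chains, Ifngr2 rose 2.45-fold and Ifnar2 2.07-fold. Ifngr1 was not called (limma, adjusted p = 0.801) and had at least 1 array at the scan ceiling. Kit, the stem cell factor receptor gene, fell by 0.94 ± 0.13. Il1rl1, the interleukin 33 receptor gene of mast cells, read 9.29, 9.04 and 9.32 at 0 h and 8.31, 8.32 and 8.34 at 24 h and fell by 0.89 ± 0.15. Csf1r, the macrophage colony-stimulating factor receptor gene, had a fitted log2 change of 0.73 ± 0.19 (adjusted p = 0.0255), but its 24 h arrays averaged no more than the background bound. That call was lost without 0 h array C (adjusted p = 0.0995) or 24 h array A (0.0662), B (0.0747) or C (0.0547). No fold is given for this gene.

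Other surface families moved in fewer members. Of 23 integrins 4 rose (7 with array weights), led by Itgam (CD11b), which rose 3.88-fold, and Itgb5, which rose 2.50-fold. Itgb7, a homing integrin subunit of lymphocytes and mast cells, fell by 0.64 ± 0.11. Of 35 tumour necrosis factor ligands and receptors 6 rose and 3 fell, and the change was called lower than in control cells in 6 and higher in 2. Tnf itself rose 3.85-fold and Ltb, the gene of lymphotoxin β, 2.81-fold, while Tnfsf13b, the B cell survival factor BAFF, fell by 1.11 ± 0.17. Of 33 tetraspanins and MS4A proteins 5 rose and 1 fell, with Cd82 at 3.82-fold. Among 37 scavenger receptor and lipid-handling genes 9 rose and 2 fell. Lpl, the lipoprotein lipase gene, read 11.76, 11.82 and 11.97 at 0 h and 15.35, 15.18 and 15.62 at 24 h, groups well apart, and rose 11.6-fold. Lrp1, a large endocytic receptor gene, rose 3.55-fold and Cd68 2.85-fold, while Apoc2 fell by 1.17 ± 0.15.

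**Figure D2:**
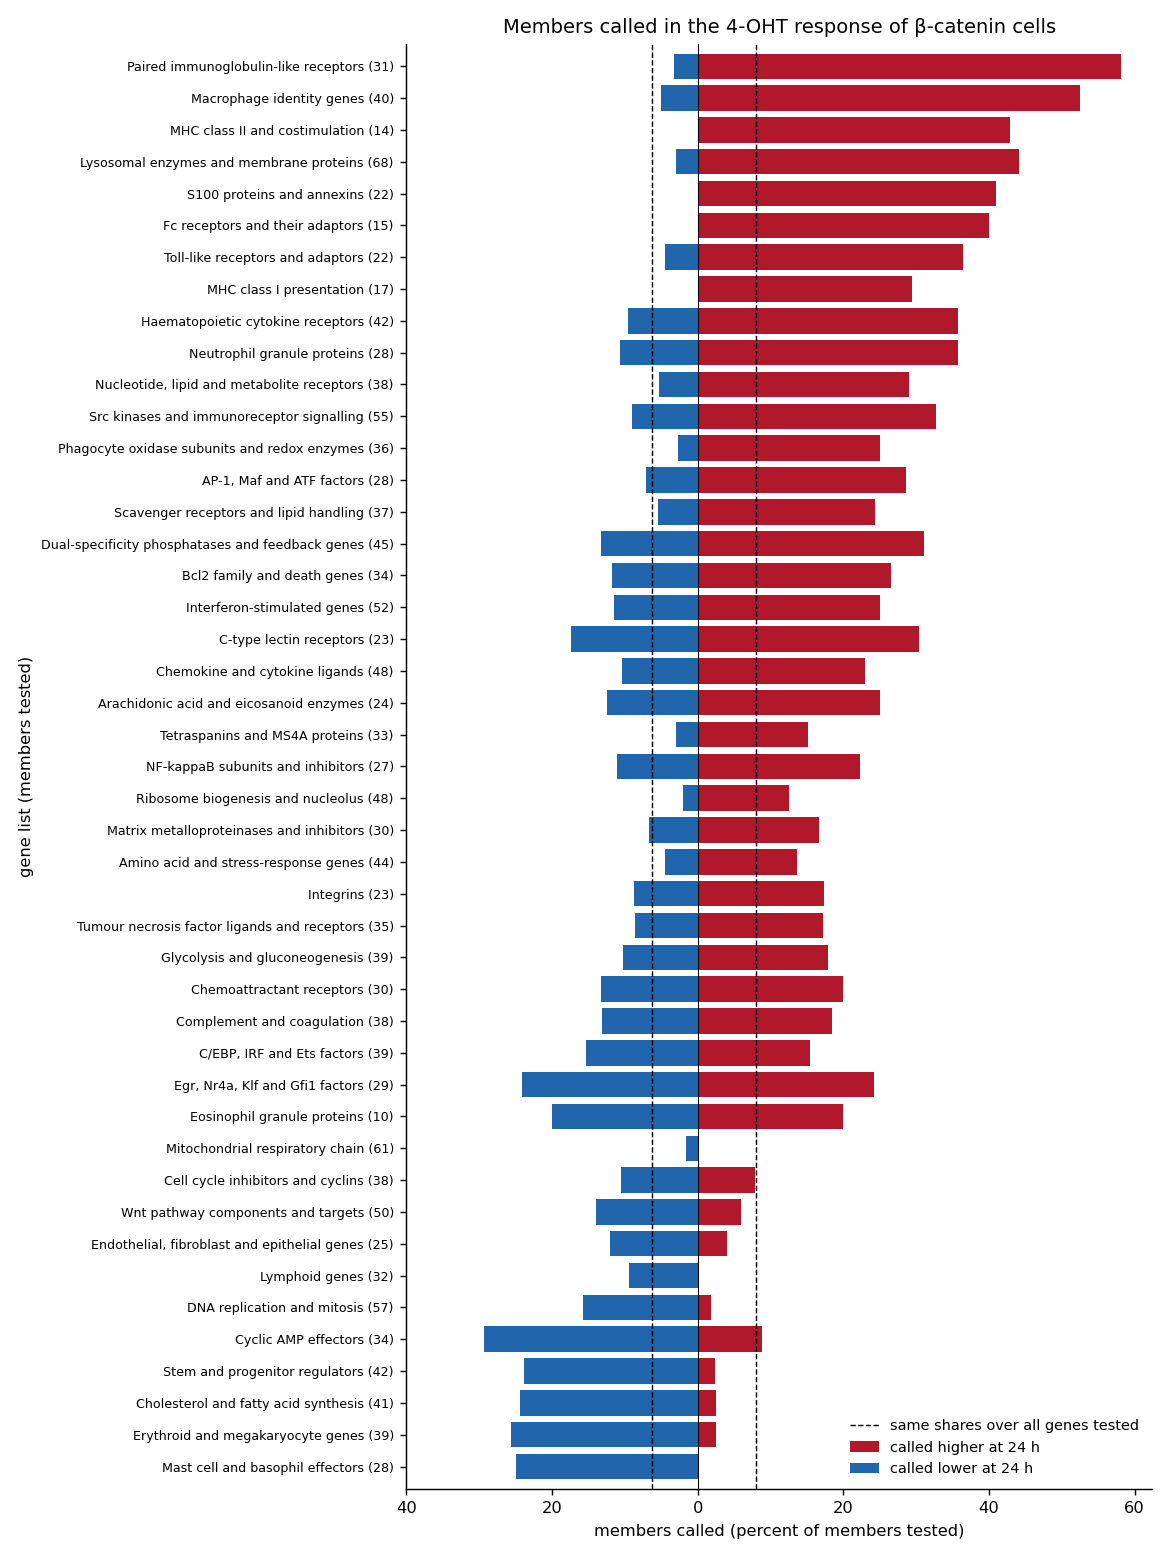
Share of the tested members of each gene list reported here (vertical axis, number tested in brackets) that were called higher (right) or lower (left) after 24 h of 4-OHT in β-catenin cells. Dashed lines mark the same shares over all genes tested, 8.02% higher and 6.32% lower. Paired immunoglobulin-like receptors, with 18 of 31 higher, stand at the top and mast cell and basophil genes, with 7 of 28 lower, at the bottom.

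Downstream of these receptors, genes of Src family kinases and immunoreceptor signalling rose in 18 of 55 members tested and fell in 5 (3 without 0 h array A, B or C or 24 h array B or C). In 8 of the 55 the change was called lower than in control cells and in 1 higher. Sla, an adaptor that restrains antigen receptor signals, read 8.78, 8.69 and 8.76 at 0 h and 13.70, 13.64 and 13.67 at 24 h. Its arrays agreed closely within each time, and it rose 30.4-fold. Nfam1, a receptor with its own activation motif, rose 11.3-fold. Ptprc, the phosphatase CD45 that sets Src kinases in motion, rose at least 2.65-fold here and at least 37.2-fold in control cells, both from below background, and the fitted changes were called different (adjusted p = 7.29e-07). Prkcd, a protein kinase C gene, rose 3.80-fold, without a called difference (-0.36 ± 0.16). It had reached the scan ceiling on at least 1 array, so that difference is not exact. Dok2, a docking protein that damps tyrosine kinase signals, read 12.19, 11.99 and 11.96 at 0 h and 11.49, 11.69 and 11.43 at 24 h and fell by 0.51 ± 0.12 on the log2 scale in β-catenin cells, while it rose by 0.77 ± 0.12 in control cells (difference adjusted p = 0.000666). All its 24 h arrays lay below its 0 h arrays.

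Among dual-specificity phosphatases, regulators of G protein signalling and other feedback genes 14 of 45 rose and 6 fell. Rgs14, Rgs18 and Rgs10, which shorten G protein signals, rose 2.15-fold, 2.10-fold and 2.07-fold. Plk3, a stress-response kinase gene, rose 2.14-fold here and had a log2 change of -0.21 ± 0.09 in control cells (adjusted p = 0.128), with the difference called (1.31 ± 0.13, adjusted p = 0.000103). The phosphatase genes Dusp1 and Dusp4, which switch off MAP kinases, rose 1.68-fold and 1.59-fold in β-catenin cells, and their log2 changes in control cells were -0.92 ± 0.11 and -1.30 ± 0.13. Both differences were called, at 1.67 ± 0.16 and 1.97 ± 0.19. Sgk1 (listed as Sgk), a kinase induced by serum and steroids, fell by 1.18 ± 0.11. Of the 45 members 13 had a called higher and 6 a called lower change than in control cells (3 lower without control 0 h array B, array B or C of control cells at 24 h, or, of β-catenin cells, array B or C at 0 h or A or B at 24 h). NF-κB subunits and inhibitors rose in 6 of 27 and fell in 3, with Relb at 1.63-fold and the upstream kinase gene Map3k14 at 1.68-fold. Of 34 effectors of cyclic AMP 10 fell and 3 rose. Rapgef3 (Epac1), an exchange factor opened by cyclic AMP, fell by 1.35 ± 0.14, and Akap12, an anchor for protein kinase A, by 1.79 ± 0.13. The cyclase gene Adcy9 fell by 0.84 ± 0.13 and the phosphodiesterase gene Pde4b by 0.87 ± 0.12. Among actin regulators, Coro1a, an actin-binding protein of leukocytes, read 13.29, 13.31 and 13.23 at 0 h and 15.82, 15.88 and 15.80 at 24 h and rose 5.89-fold. Its groups did not overlap. Lcp1, the leukocyte actin bundler L-plastin, rose 1.77-fold, while Dock9, an exchange factor for Cdc42, fell by 2.11 ± 0.10.

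AP-1 factors, the Fos and Jun proteins and their Maf and ATF relatives, rose in part in β-catenin cells and fell in part in control cells. Of 28 members tested 8 rose and 2 fell in β-catenin cells (5 rose without 0 h array B or C or 24 h array A or C), with a median log2 change of 0.21. In control cells 3 rose and 12 fell. The change was called higher than in control cells in 8 members and lower in 3, the latter in 0 to 2 when 1 array was left out. Fos read 8.93, 8.95 and 9.10 at 0 h and 11.03, 10.99 and 11.28 at 24 h in β-catenin cells. In control cells Fos read 12.47, 12.76 and 12.99 at 0 h and 12.23, 11.63 and 11.64 at 24 h. It rose 4.31-fold with β-catenin-S33Y and its log2 change was -0.90 ± 0.17 without, a called difference of 3.01 ± 0.25 (adjusted p = 3.5e-05). The highest β-catenin array at 24 h was still below the lowest control array at either time. Jun, the usual partner of Fos, read 8.90, 9.04 and 8.96 at 0 h and 10.53, 10.38 and 10.78 at 24 h in β-catenin cells, rose 3.03-fold, and also stayed below every control array. In control cells Jun read 11.70, 12.04 and 11.97 at 0 h and 12.17, 12.07 and 12.23 at 24 h. Its change in control cells was not called (0.26 ± 0.12, adjusted p = 0.176), and the difference was (1.34 ± 0.17, adjusted p = 0.000694). Jdp2 (listed as Jundm2), a repressor of AP-1, rose 1.88-fold with β-catenin-S33Y and had nearly the same change without (0.98 ± 0.09). Jund (listed as Jund1) was not called here (0.21 ± 0.10).

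**Figure D3:**
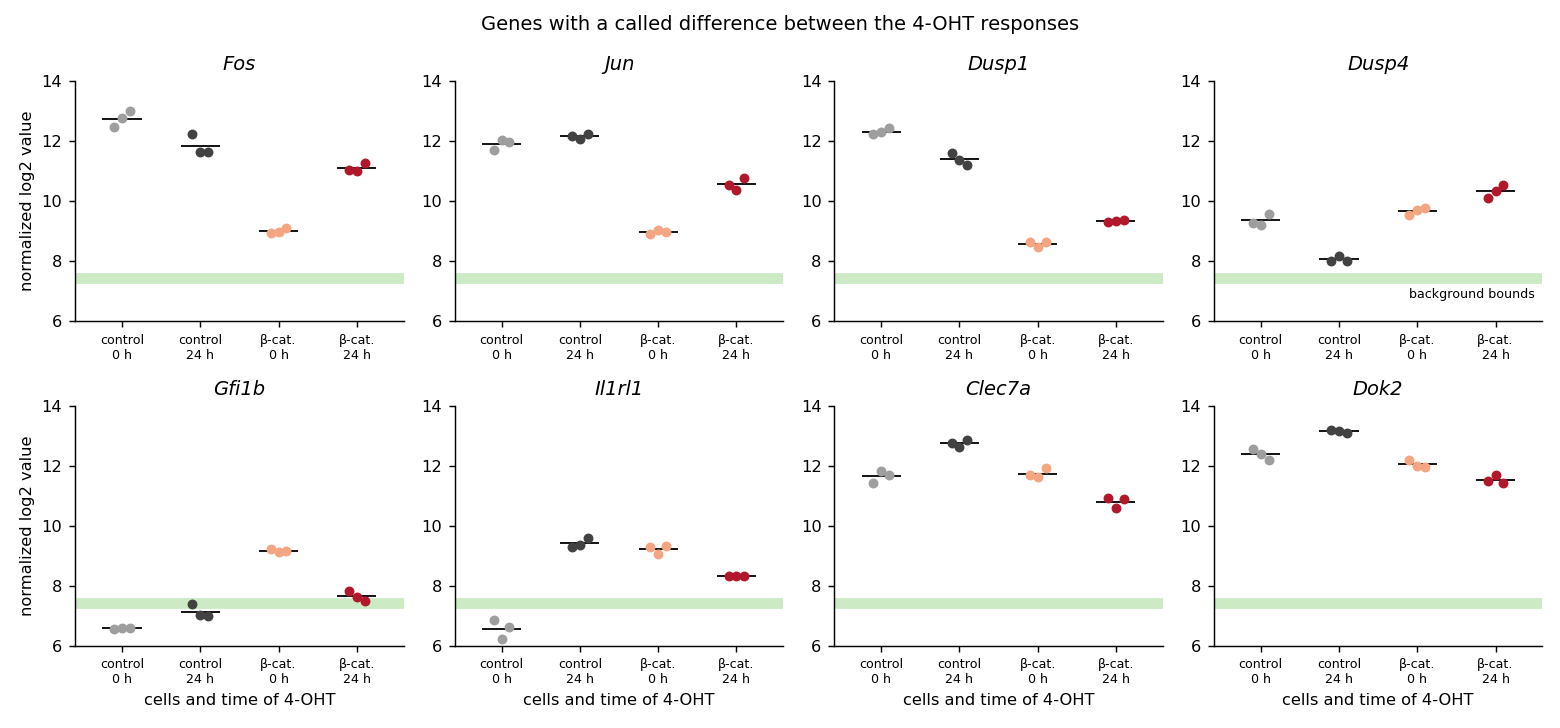
Normalized log2 value (vertical axes, 6 to 14) of 8 genes on every array of control and β-catenin cells at 0 h and after 24 h of 4-OHT (horizontal axes). Points are arrays, bars are means of 3 arrays and bands span the background bounds of the 12 arrays. Fos, Jun, Dusp1 and Dusp4 rise in β-catenin cells, where Gfi1b, Il1rl1, Clec7a and Dok2 fall, and Gfi1b in control cells stays near or below the bounds.

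Among Egr, Nr4a, Klf and Gfi1 factors 7 of 29 rose and 7 fell. Egr2, a factor of the macrophage programme, read 7.34, 7.27 and 7.31 at 0 h and 9.54, 9.74 and 9.57 at 24 h and rose at least 4.77-fold, and Nab2, the co-repressor that Egr proteins induce, rose 2.19-fold. The difference of Nab2 was not called (0.48 ± 0.19). Gfi1b, a repressor needed for red cells and platelets, read 9.21, 9.13 and 9.15 at 0 h and 7.84, 7.61 and 7.48 at 24 h and fell by 1.52 ± 0.12. Bcl6, a repressor in several immune cells, fell by 1.14 ± 0.11. C/EBP, IRF and Ets factors were even, with 6 of 39 higher and 6 lower (3 lower without 0 h array A or B). Irf8, which directs progenitors to monocytes, read 7.78, 7.90 and 7.83 at 0 h and 9.28, 9.69 and 9.20 at 24 h, with no overlap, and rose 2.93-fold, while Ets1 fell by 0.94 ± 0.13. Spi1 (listed as Sfpi1), which encodes PU.1, was not called (-0.04 ± 0.11, adjusted p = 0.852), and its probe may read the fusion transcript. Cebpb was at the scan ceiling at both times.

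The macrophage list held the second greatest share of calls, 21 of 40 higher and 2 lower, with a median log2 change of 0.54 (0.29 at the bounds). Adgre1 (listed as Emr1), a surface marker of mature macrophages, read 8.19, 8.24 and 8.05 at 0 h and 11.95, 12.37 and 12.37 at 24 h, with all 24 h arrays above all 0 h arrays, and rose 16.8-fold (adjusted p = 9.38e-10). Slc11a1 (Nramp1), a metal transporter of the phagosome, rose 7.21-fold and the protease gene Lgmn 3.82-fold. Tmem119 and the clotting factor gene F13a1 fell, by 1.24 ± 0.19 and 0.96 ± 0.16. Lyz2 and Ly6c1 were at the scan ceiling at both times. In this list 15 changes were called lower than in control cells and 4 higher (2 without control 0 h array A or B, control 24 h array B or β-catenin 0 h array A). The higher ones included the falls of Tmem119, which reached at least 54.2-fold in control cells, to below background on 1 array, and F13a1 (2.10 ± 0.22).

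Lysosomal genes rose in 30 of 68 members tested and fell in 2 (1 without 0 h array A, B or C or 24 h array B or C), and their median log2 change was 0.32. Gm2a, the activator of ganglioside breakdown, rose 5.94-fold, and Ctsc, a protease that activates granule enzymes, at least 2.66-fold. Mitf, a master factor of lysosome and pigment genes, fell by 0.52 ± 0.10. Of the 30, 27 rose in control cells too, and over the list the difference was called lower in 8 (18 under normexp and quantile normalization, 5 without control 0 h or 24 h array B or β-catenin 0 h array C). S100 proteins and annexins rose in 9 of 22 and fell in 0 (limma; 1 at an unadjusted p under 0.05). The change was called lower than in control cells in 4 of the 22 and higher in 1. Anxa6 rose 6.78-fold, the actin-capping gene Capg 2.75-fold and S100a10 2.35-fold, while S100a8 and S100a9 were at the ceiling at both times.

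Genes of killing, complement and lipid mediators changed in smaller numbers. Of 36 oxidase and redox genes 9 rose and 1 fell. The membrane subunits of the phagocyte oxidase, Cybb and Cyba, rose at least 2.08-fold and 1.81-fold, and the proton channel gene Hvcn1 fell by 0.60 ± 0.11. Hmox1, the haem-degrading enzyme, read 11.41, 11.54 and 11.51 at 0 h and 13.20, 12.99 and 13.47 at 24 h, groups apart, and rose 3.32-fold, against a log2 change of 0.28 ± 0.15 in control cells (difference 1.45 ± 0.21, adjusted p = 0.00148). Of 38 complement and coagulation genes 7 rose and 5 fell. Cfp, the gene of properdin, read 11.78, 12.15 and 12.20 at 0 h and 15.60, 15.35 and 15.44 at 24 h and rose 10.7-fold. Its log2 change was 3.42 ± 0.15 here and 3.39 ± 0.15 in control cells, with control arrays at the ceiling. Procr, the protein C receptor gene, rose 4.78-fold. Tgm2, a transglutaminase that crosslinks proteins, read 13.39, 13.41 and 13.53 at 0 h and 10.75, 10.54 and 10.38 at 24 h and was the gene with the largest fall, by 2.89 ± 0.16 (adjusted p = 2.52e-07). Enzymes of arachidonic acid metabolism rose in 6 of 24 and fell in 3, Alox5, which starts leukotriene synthesis, rising 2.04-fold and Mgll falling by 0.61 ± 0.10. Of 30 metalloproteinases and inhibitors 5 rose and 2 fell, Mmp9 rising at least 3.54-fold from below background and Mmp28 falling by 1.09 ± 0.12. The change was called lower than in control cells in 5 of the 30 and higher in 3.

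Secreted signals and antigen presentation changed in part. Of 48 chemokines and cytokines 11 rose (7 without 0 h array C or 24 h array C) and 5 fell. Il18, a cytokine released by inflammasomes, read 7.22, 7.17 and 7.10 at 0 h and 10.40, 10.66 and 10.60 at 24 h, from at or below background to well above it, and rose at least 9.14-fold. Pdgfa rose 1.65-fold and Tgfb3 fell by 1.04 ± 0.14. Interferon-stimulated genes rose in 13 of 52 (8 without 0 h array B) and fell in 6. In 10 of the 52 the change was called lower than in control cells and in 2 higher. Slfn2, which keeps leukocytes quiescent, rose 10.7-fold and Samhd1, which degrades nucleotides, 5.05-fold, while Ifit2 and Ifit3 fell by 0.80 ± 0.10 and 0.65 ± 0.10. MHC class II and costimulation genes rose in 6 of 14 and fell in 0 (limma; 1 at an unadjusted p under 0.05), with Icam1 rising at least 1.62-fold, Cd80 at least 2.37-fold and Icosl 1.89-fold. Cd74, the invariant chain, was not called and lay near the background bound, and its fitted change was called lower than in control cells (adjusted p = 0.000438). MHC class I genes rose in 5 of 17 (8 with array weights, 1 without genes at the scan ceiling) and fell in 0 (limma; 0 at an unadjusted p under 0.05), led by H2-D1 at 1.62-fold. H2-K1 rose 1.45-fold here and had a log2 change of -0.46 ± 0.09 in control cells, whose arrays were at the ceiling. Probes of the H2 genes may read more than 1 of them.

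In 3 metabolic lists the called differences from control cells all pointed up. Cholesterol and fatty acid synthesis genes fell in 10 of 41 members tested (18 with array weights) and rose in 1, with a median log2 change of -0.22. In control cells 27 fell and 2 rose (median -0.46), and 7 differences were called, all higher in β-catenin cells (4 without array C of control cells at 0 h or array B of β-catenin cells at 24 h). Of the lower differences 0 passed even at an unadjusted p under 0.05 (limma). Thrsp, a regulator of fat synthesis, read 12.01, 11.96 and 11.93 at 0 h and 9.77, 9.84 and 9.43 at 24 h and fell by 2.29 ± 0.12 (control -2.41 ± 0.12). Me1 (listed as Mod1), which supplies reducing power for fat synthesis, fell by 0.81 ± 0.14 (control -2.04 ± 0.14; difference adjusted p = 0.00229).

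Amino acid and stress-response genes rose in 6 of 44 members tested (3 without 0 h array C or 24 h array C, 10 or 11 with stricter filters and 15 with array weights) and fell in 2 in β-catenin cells, with a median of 0.19. In control cells 0 rose (limma; 0 at an unadjusted p under 0.05) and 20 fell (median -0.25). The difference was called higher in 14 and lower in 0 (0 at an unadjusted p under 0.05), against 3.74% and 3.43% of all genes tested. It was called higher in 15 without genes at the scan ceiling, and in 9 without array B or C of control cells at 24 h or of β-catenin cells at 0 h. Sesn2, a stress-induced brake on growth signalling, rose 1.45-fold (control -0.24 ± 0.11; difference adjusted p = 0.0108). Phgdh, the first enzyme of serine synthesis, read 14.45, 14.48 and 14.61 at 0 h and 15.35, 15.04 and 15.66 at 24 h and rose 1.79-fold, with a difference that was not called (0.84 ± 0.24, adjusted p = 0.0544). Dnajb9, a chaperone partner of the endoplasmic reticulum, fell by 0.77 ± 0.12 in β-catenin cells and had the same change in control cells (-0.77 ± 0.12).

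Glycolysis and gluconeogenesis genes rose in 7 of 39 (4 without 0 h array A or B or 24 h array C) and fell in 4 (1 or 2 without 0 h array A, B or C or 24 h array A or C), while in control cells 5 rose and 17 fell. In 12 the difference was called higher in β-catenin cells and in 0 lower (limma; 1 at an unadjusted p under 0.05), or 10 and 0 without genes at the ceiling. Hk3, the hexokinase of myeloid cells, read 13.44, 13.31 and 13.35 at 0 h and 15.68, 15.67 and 15.69 at 24 h, groups apart, and rose 4.95-fold. Eno1, a glycolytic enzyme, rose 1.54-fold against a log2 change of -0.46 ± 0.13 in control cells (difference adjusted p = 0.00461). Fbp1, which runs the pathway backwards, read 10.72, 10.81 and 10.70 at 0 h and 8.71, 8.81 and 8.33 at 24 h and fell by 2.13 ± 0.16 (control -3.31 ± 0.16). Of 61 genes of the mitochondrial respiratory chain 0 were called higher and 1 lower in β-catenin cells (limma; 1 higher at an unadjusted p under 0.05), with a median log2 change of 0.08. Only 24 of the 61 had no array at the scan ceiling, so changes of the other members could be read in part at most. Called differences numbered 0 in either direction (1 higher and 0 lower unadjusted).

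**Figure D4:**
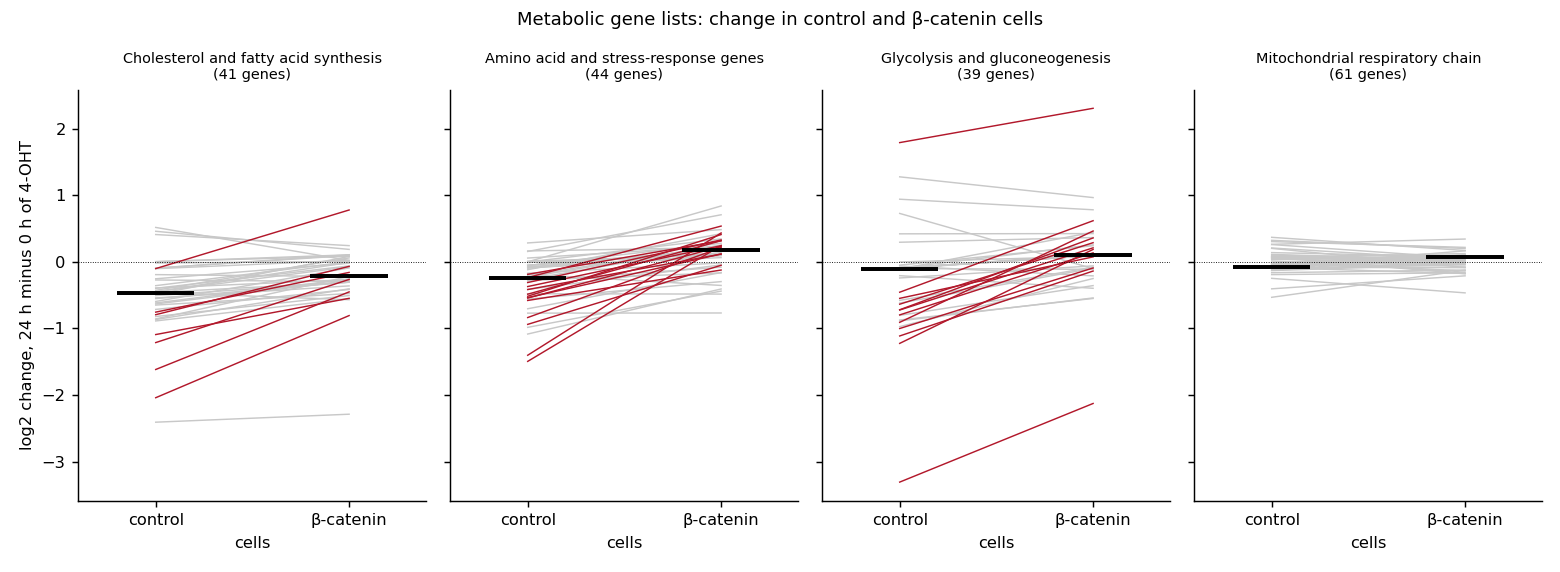
Log2 change from 0 h to 24 h of 4-OHT (vertical axis) of each tested member of 4 metabolic lists in control cells (left) and β-catenin cells (right). Each line is a gene, red where the change was called higher in β-catenin cells and grey where no difference was called, and bars are medians. The amino acid list shows 14 red lines, the glycolysis list 12, the cholesterol list 7 and the respiratory chain 0.

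Among survival and division genes the A1 group stood out in size. Of 34 Bcl2 family and death genes 9 rose and 4 fell (7 fell with array weights). Bcl2a1b, a gene of the survival protein A1, read 9.29, 9.50 and 9.78 at 0 h and 14.83, 14.69 and 15.03 at 24 h and rose 40.1-fold, and its near-identical copy Bcl2a1c, which 1 probe may not separate from it, rose 25.4-fold. Bid, which links death receptors to mitochondria, rose 1.43-fold, and Bcl2 fell by 0.50 ± 0.08. Among 38 cyclins and cell cycle inhibitors 3 rose and 4 fell (7 fell with array weights or under normexp and quantile normalization), Cdkn2b, an inhibitor of cyclin D kinases, rising 1.82-fold. DNA replication and mitosis genes fell in 9 of 57 (5 without 0 h array B or C or 24 h array C, 14 with array weights and 16 under normexp and quantile normalization) and rose in 1 (4 without control 24 h array A), the falls including the kinetochore genes Ndc80 (listed as Kntc2), by 0.52 ± 0.10, and Cenpf, by 0.56 ± 0.12. In control cells 9 of the 57 rose and 3 fell, and 5 differences were called, all lower in β-catenin cells, of which 2 or 3 were left without any of the 3 β-catenin 24 h arrays, array B or C at 0 h of either cells, or control 24 h array B or C. Mcm6 and Cdc20 were at the scan ceiling at both times. Ribosome biogenesis genes rose in 6 of 48 (3 without 0 h array A or B or 24 h array C, 13 with array weights) and fell in 1, Heatr1, a factor of ribosomal RNA synthesis, rising 1.68-fold.

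Among genes of other blood cells, those of mast cells, red cells and progenitors were called lower more often than higher. Of 28 mast cell and basophil genes 7 fell and 0 rose (limma; 4 higher at an unadjusted p under 0.05), among them Cpa3, a mast cell protease gene, which read 10.48, 10.73 and 10.69 at 0 h and 9.41, 9.13 and 9.31 at 24 h and fell by 1.35 ± 0.17, and Hdc, which makes histamine, by 0.85 ± 0.16. Of 39 erythroid and megakaryocyte genes 10 fell and 1 rose, among them Gata1, the master factor of the lineage, by 1.09 ± 0.14, Vwf by 1.02 ± 0.17 and Nfe2 by 0.72 ± 0.16. Of 42 stem and progenitor genes 10 fell (6 without 0 h array C) and 1 rose, among them Ly6a (Sca-1), by 1.30 ± 0.13, Hlf, by 0.96 ± 0.10, and Runx2, by 0.84 ± 0.10. All of these 10 fell in control cells as well. Neutrophil granule genes rose in 10 of 28 and fell in 3, but only 15 of the 28 had no array at the scan ceiling, and 6 of those rose. Lcn2, which sequesters iron carriers of bacteria, rose 2.87-fold and Mpo at least 1.72-fold, with arrays at the ceiling, while Camp, the cathelicidin gene, read 13.18, 13.38 and 13.49 at 0 h and 11.54, 11.46 and 10.84 at 24 h and fell by 2.07 ± 0.27. Eosinophil granule genes rose in 2 and fell in 2 of 10, and Prg2 was at the ceiling at both times. In control cells 7 of these 10 rose and 0 fell (limma; 0 lower at an unadjusted p under 0.05). Their change was called lower than in control cells in 3 and higher in 1. Lymphoid genes fell in 3 of 32 and rose in 0 (limma; 0 at an unadjusted p under 0.05), led by Nkg7, a granule protein gene, by 1.36 ± 0.17. The share that fell, 9.4%, was near the 6.32% of all genes tested. Endothelial, fibroblast and epithelial genes rose in 1 and fell in 3 of 25, and the part of any admixed cells in these results was not tested.

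Wnt pathway components and targets rose in 3 of 50 members tested and fell in 7 with 4-OHT. The shares were 6% higher and 14% lower, against 8.02% and 6.32% of all genes tested. Tcf7l2, a partner of β-catenin, rose 1.47-fold and the receptor gene Fzd2 at least 1.36-fold, while the co-repressor gene Tle2 fell by 1.24 ± 0.15 and Notum (listed as 5730593N15Rik), a secreted inhibitor of Wnt proteins, by 0.84 ± 0.12. Ctnnb1, the gene of β-catenin, was not called (-0.22 ± 0.09, adjusted p = 0.131). Among Wnt targets, Axin2 and Lef1 were below background at both times.

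The remaining large changes belonged to no list. Gprc5b, an orphan receptor gene, rose from below background on all 3 arrays, with a fitted log2 change of 4.24 ± 0.17. Falls included Ces1c (listed as Es1), a carboxylesterase gene, by 2.66 ± 0.14, Cp, the copper carrier ceruloplasmin, by 2.08 ± 0.23, Lypd6b (listed as 2310010M24Rik), by 2.09 ± 0.13, Tslp, a cytokine gene, at least 2.60-fold, and Il17re, a chain of the interleukin 17C receptor, at least 3.03-fold, the last pair to below background. Il17re read 8.43, 8.53 and 9.99 at 0 h and 7.23, 6.88 and 6.83 at 24 h, so that 1 of its 0 h arrays stood apart.

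Control cells share no array with β-catenin cells, but both changes came from the same fit, with a shared estimate of each gene's spread. Both sets of calls are laid side by side here and are not independent. Of the 1801 genes that rose in β-catenin cells, 1176 also rose in control cells (65.3% of the former and 44.0% of the latter). In 831 of these the estimate was smaller in β-catenin cells, and the difference itself was called smaller in 240 and larger in 13. Of the 1419 genes that fell, 847 also fell in control cells (59.7% and 35.0%), with 185 called smaller falls and 3 called larger. Coro1a was among the few with a called larger rise (2.56 ± 0.11 against 1.87 ± 0.11, difference adjusted p = 0.0176), although control arrays at 24 h were at the ceiling. A total of 99 genes were called in both with opposite signs, 58 higher and 41 lower in β-catenin cells. Beyond Fos, Dusp1 and Dusp4, the former included Neurl2, with a log2 change of 1.16 ± 0.12 in β-catenin cells and -0.52 ± 0.12 in control cells. Gfi1b was among the latter, though below background in both groups of control cells. They also included Clec7a (-0.95 ± 0.13 against 1.11 ± 0.13), and Il1rl1 (-0.89 ± 0.15) and Scrg1 (-0.92 ± 0.19), whose rises in control cells, at least 3.96-fold and at least 1.06-fold, began below background. Neat1 (listed as 2310043N10Rik), a long noncoding RNA of nuclear paraspeckles, changed by -0.84 ± 0.18 in β-catenin cells and 0.94 ± 0.18 in control cells.

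A further 567 genes were called higher and 531 lower in β-catenin cells but were not called in control cells, and the difference itself was called for 107 and 116 of them. Hmox1, Plk3 and Jun were among the former. So was Ndrg1, a stress-responsive gene, which read 12.71, 12.65 and 12.68 at 0 h and 14.28, 14.70 and 14.52 at 24 h and rose 3.52-fold, but its control arrays reached the scan ceiling. Among the latter were Akap12, with a log2 change of 0.34 ± 0.13 in control cells (difference -2.13 ± 0.18, adjusted p = 4.22e-05), and Gata1, Cpa3 and Ces1c, all below background in both groups of control cells. In the other direction 1457 genes rose and 1517 fell in control cells without a call in β-catenin cells, and the difference was called for 340 and 463 of them.

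**Figure D5:**
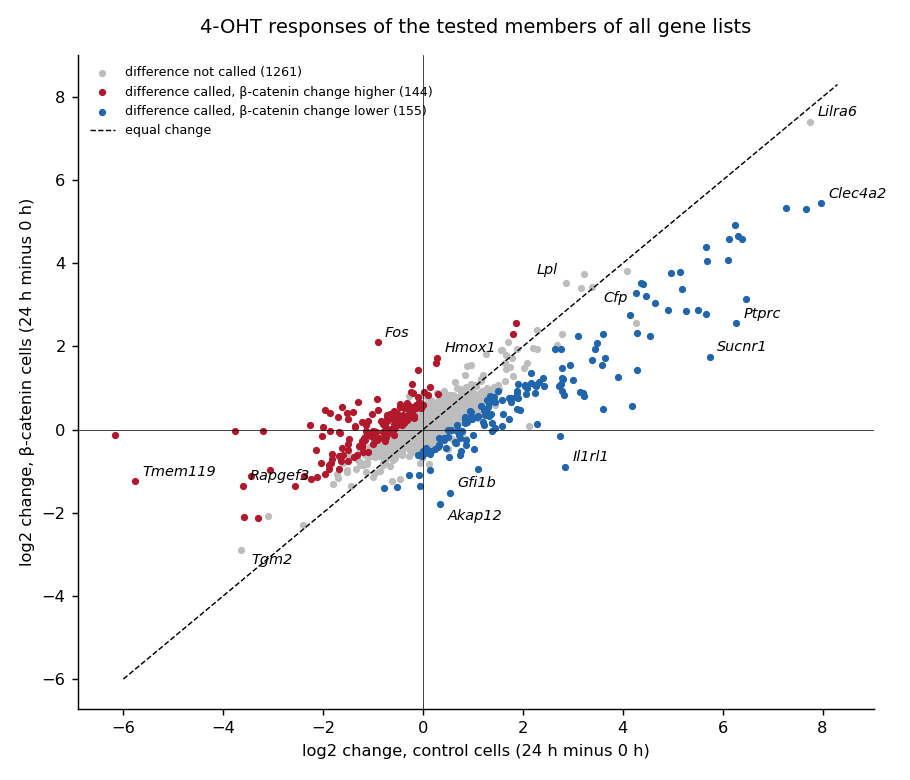
Log2 change from 0 h to 24 h of 4-OHT in control cells (horizontal axis) and β-catenin cells (vertical axis) for the 1560 tested members of the gene lists. Points are genes, blue or red where the difference was called (155 lower and 144 higher in β-catenin cells) and grey otherwise, and the dashed line marks equal change. Clec4a2, Ptprc and Sucnr1 lie below the line, Lilra6, Lpl and Cfp near it, and Fos and Il1rl1 in the quadrants of opposite change. Lilra6, Lpl and Cfp had arrays at the scan ceiling, so their distance from the line is not exact.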

How the data were processed

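Total RNA of 12 samples was hybridised to single-colour Agilent mouse arrays, per the labels' protocols. The authors deposited a table of scanned spot intensity values and a table of normalized log2 values, per the file headers. The normalized table held 27676 gene names with 1 probe each, made by a method that the sources used here do not give, as for the genome build. The submitters' processing notes name limma. Of the names, 14728 matched a RefSeq symbol, 4294 matched a RefSeq synonym and 8654 were kept as listed. Groups were taken from the labels. No column of either table was left out, and another table that repeated the normalized values was not used.

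Genes at or above the 30th percentile on at least 3 arrays were kept (22461). All 4 groups entered 1 limma fit (limma 3.58.1, R 4.3.3), with contrasts for the change in β-catenin cells, the change in control cells and their difference (lmFit, eBayes, Benjamini-Hochberg over all genes, called below 0.05). Summaries and figures used Python 3.11.15, pandas 2.3.3, numpy 2.4.6 and matplotlib 3.10.9. An array's background bound was the mode of its values plus 3 standard deviations of the values below the mode, and the scan ceiling was an intensity of 65535. A group below the bound was set at the bound for a fold. On data simulated for the change in β-catenin cells over 22461 genes, the fit recovered 79% of 100 genes changed 2-fold and 98% of 100 changed 4-fold, and 14 unchanged genes were called. The simulated noise was normal and independent between genes, without shifts shared by an array, and far fewer genes changed than were called here. These figures therefore check the fit and do not give the error rate of the measured data.

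Named genes were the 10 largest rises and falls with groups apart (clone, predicted-gene and accession names left out), per list up to 4 called members in the main direction, 2 in the other and 2 bright members without a call, the 8 largest differences per sign among opposite calls, the 8 largest changes per direction called in β-catenin cells alone, and 9 genes set by name. The members and the 46 lists were chosen with earlier results of these data known, and the results of some members and 1 list are not reported here. Alternatives were other normalizations, filters, priors, array weights, a block for the replicate letter, β-catenin arrays alone and each array left out. The labels do not say whether the letters pair the samples, and the main fit did not pair them.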

Additional observations from a re-analysis of the deposited data

Results flagged for a closer look

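For 1610 genes the test of the difference itself (the interaction term of the limma fit, with Benjamini-Hochberg adjustment over 22461 genes) called another change in β-catenin cells than in control cells. The values below are log2 differences, β-catenin change minus control change, as fitted, so that those of genes with a group below background or at the scan ceiling are not exact. They cover the named genes whose change belonged to the 10 largest rises or falls, was called with opposite signs in both kinds of cells, or was called in β-catenin cells alone.

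Among the 10 largest rises the difference was -2.52 for Clec4a2, -2.36 for Clec4b1, -1.95 for Bcl2a1b, -1.64 for Bcl2a1c, -1.80 for Il1rl2, -1.54 for Pirb, -1.31 for Sla and -1.28 for Pilrb1. All 8 of these genes rose in both kinds of cells, and control arrays of Bcl2a1b and Pirb had reached the scan ceiling. In control cells at 0 h Clec4b1, Bcl2a1c and Il1rl2 had arrays below background, as did Il1rl2 in β-catenin cells. Among the 10 largest falls it was 1.48 for Dock9, 1.18 for Fbp1 and 1.14 for Lypd6b, which fell in both, and -2.71 for Ces1c, which was below background in control cells.

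Of the genes called with opposite signs, those that fell in β-catenin cells differed by -3.74 (Il1rl1), -2.07 (Gfi1b), -2.05 (Clec7a), -1.78 (Neat1), -1.68 (Scrg1), -1.36 (Cd200r1), -1.28 (Dok2) and -1.17 (Ear6). Gfi1b and Ear6 were below background in both control groups, Il1rl1 and Scrg1 in control cells at 0 h, and the Ear probes may read several genes of that family. Those that rose differed by 3.01 (Fos), 2.25 (Maff), 2.15 (Fosl1), 2 (Elovl3), 1.97 (Dusp4), 1.92 (Isg20), 1.68 (Neurl2) and 1.67 (Dusp1). The call in β-catenin cells was lost under at least 1 alternative for Cd200r1 (adjusted p 0.00322 to 0.0603 over the alternatives), Maff (0.0194 to 0.148), Fosl1 (0.00311 to 0.0619), Elovl3 (0.0166 to 0.156) and Isg20 (0.0106 to 0.110).

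Of the genes called in β-catenin cells alone, those that rose differed by 1.85 (Ndrg1), 1.54 (Car6), 1.53 (Adam8), 1.45 (Hmox1), 1.34 (Jun), 1.28 (Smox), 1.10 (Saa3) and 0.89 (Adamtsl5). Car6 and Smox were below background at 0 h in β-catenin cells, control arrays of Ndrg1 and Adam8 had reached the scan ceiling, and the difference of Adamtsl5 was lost under some alternatives (adjusted p 0.00666 to 0.0688). Those that fell differed by -2.13 (Akap12), -2.03 (Gdpd2), -2 (Slco1c1), -1.95 (Aldh1a7), -1.45 (Ly6d), -1.42 (Lurap1l) and -1.29 (Cpa3). Apart from Akap12, all of these were below background in both groups of control cells.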

How the results depend on the processing

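Of 264 named genes with a call in β-catenin cells, 31 lost it under at least 1 alternative, 13 of them only when an array was left out, and 0 changed direction. Of 133 with a called difference, 16 lost it. Array weights moved the counts most, to 5060 genes called, 2733 higher and 2327 lower, with 2810 differences, 1460 higher and 1350 lower. A filter for genes above the bound on 3 or more arrays gave 1158 lower differences against 771. Leaving out each array in turn gave 2160 to 3758 genes called, 1260 to 2024 higher, 900 to 1734 lower and 471 to 503 changed at least 2-fold. It gave 1078 to 2104 differences, 576 to 1031 higher and 502 to 1073 lower, the fewest without β-catenin 0 h array B or C. Normexp with quantile normalization gave 1859 higher and 1930 lower, and scaling to the 75th percentile 1484 higher and 1717 lower, so that the larger direction turned. That scaling moved the median of all genes to -0.04 in β-catenin cells and -0.12 in control cells, from 0.02 and -0.00497. The cause of these shifts was not tested. Of 7 lists with a median change of at least 0.25, 0 changed sign, but 15 lists with smaller medians did so under some alternative.

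In β-catenin cells, deviations from the group means correlated between times (Pearson) at -0.174 for letter A, -0.0316 for B and 0.0828 for C. Between samples of different letters the values ran from -0.201 to 0.223. Deviations from the mean of so few arrays depend on each other, so these values cannot decide whether the letters pair the samples. With the replicate letter as a block, 3080 genes were called, 1699 higher and 1381 lower, and 1441 differences.

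Values below the background bound and at the scan ceiling limit what could be read, and 3 arrays a group limit the precision. Genes at the ceiling in both groups drifted by 0.10 in β-catenin cells and -0.09 in control cells, so small differences of very bright genes carry no weight.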
